A study of Mus musculus with 36 samples.

Results

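Adipokines are hormones and other proteins that adipose tissue secretes, and 8 adipokine genes were followed here in the epididymal white adipose tissue (eWAT) of mice in which *Ccl19* had been knocked into the locus of one of them, *Adipoq*. The genes were chosen by name, as *Adipoq*, *Lep*, *Retn*, *Cfd*, *Nampt*, *Rbp4*, *Rarres2* and *Apln*, and each of the 8 matched 1 of the 24750 genes in the table. All 8 passed the filter on low values and were tested among 17852 genes. Male C57BL/6 mice, either WT or CCL19-KI, received a normal diet (ND), a diet with 40% of its energy as fat (40% HFD) or one with 60% (60% HFD) from 6 to 16 weeks of age, 10 weeks in all. For the last 2 weeks, silk ligatures around both upper second molars induced periodontitis in 18 of the 36 mice. The other 18 are labelled as not ligatured. Each of the 12 groups of genotype, diet and ligature thus held 3 mice, with 1 library each. The CCL19-KI mice were a separately bred homozygous line in which the *Adipoq* locus drives *Ccl19*, so that WT mice were not littermates of the same line. In these homozygous mice, the knock-in is at both copies of *Adipoq*, and the study's methods state that the design leaves the endogenous gene intact.

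Adipocytes make adiponectin, leptin, resistin and adipsin, and these products are markers of the mature fat cell in mice. In obesity, leptin is known to rise with the size of the fat store, whereas adipsin and adiponectin are often low. Chemerin, apelin, visfatin and retinol-binding protein are also made by other cells, the last above all by hepatocytes. The genes are *Adipoq* (ENSMUSG00000022878, chr16:23146536-23158028, plus strand), *Lep* (ENSMUSG00000059201, chr6:29060220-29073877, plus strand), *Retn* (ENSMUSG00000012705, chr8:3655770-3660110, plus strand), *Cfd* (ENSMUSG00000061780, chr10:79890853-79892655, plus strand), *Nampt* (ENSMUSG00000020572, chr12:32819545-32853349, plus strand), *Rbp4* (ENSMUSG00000024990, chr19:38116629-38125281, minus strand), *Rarres2* (ENSMUSG00000009281, chr6:48569696-48572789, minus strand) and *Apln* (ENSMUSG00000037010, chrX:48025146-48034853, minus strand), with positions from GENCODE M21 on GRCm38. Each value counts the reads that RSEM assigned to the transcripts of a gene.

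To show the DNA in front of the genes on which the results turn, the 250 bases upstream of 4 start sites were read from RefSeq promoter entries (GRCm38.p6). Capitals mark TTNNGNAA, a pattern like that bound by C/EBP factors of adipocyte differentiation, and TATAA, the TATA box pattern, each sought on both strands, where matches may overlap. *Adipoq* (chr16:23146286-23146535, plus strand) is the gene at the knock-in locus, *Lep* (chr6:29059971-29060220, plus strand) and *Cfd* (chr10:79890603-79890852, plus strand) are the members that moved most with diet, and *Retn* (chr8:3655520-3655769, plus strand) is the other adipocyte hormone gene called with diet.
Adipoq: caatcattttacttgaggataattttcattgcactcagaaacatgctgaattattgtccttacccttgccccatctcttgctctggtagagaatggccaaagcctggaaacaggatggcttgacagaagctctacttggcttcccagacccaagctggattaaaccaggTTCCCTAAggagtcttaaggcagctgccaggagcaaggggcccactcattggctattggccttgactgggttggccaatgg
Lep: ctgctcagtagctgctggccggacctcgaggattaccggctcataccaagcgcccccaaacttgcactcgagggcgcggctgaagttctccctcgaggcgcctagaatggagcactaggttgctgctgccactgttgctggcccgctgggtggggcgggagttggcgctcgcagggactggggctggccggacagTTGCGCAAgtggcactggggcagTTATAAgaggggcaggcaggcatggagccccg
Retn: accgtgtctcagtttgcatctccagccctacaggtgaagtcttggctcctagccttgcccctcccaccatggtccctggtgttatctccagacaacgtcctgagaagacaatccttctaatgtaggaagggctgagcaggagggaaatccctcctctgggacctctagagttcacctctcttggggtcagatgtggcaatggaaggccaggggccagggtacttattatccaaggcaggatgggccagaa
Cfd: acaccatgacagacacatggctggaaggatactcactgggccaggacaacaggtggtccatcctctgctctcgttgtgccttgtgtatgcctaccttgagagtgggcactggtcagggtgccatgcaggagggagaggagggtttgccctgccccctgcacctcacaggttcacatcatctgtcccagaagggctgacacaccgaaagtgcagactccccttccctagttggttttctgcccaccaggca

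The TTNNGNAA pattern began 81 bases before the start of *Adipoq* and 55 bases before that of *Lep*, and was not found in the windows of *Retn* and *Cfd*. Of 32851 RefSeq promoter windows of this length, 36.8% held it. The TATAA pattern was found in the *Lep* window, 31 bases before the start, and in 22.8% of all windows. The DR1 direct repeat, like that bound by PPAR factors, was in none of the 4 windows and in 0.0335% of all windows. The E-box pattern CANNTG was found in each of the 4 windows and in 66.2% of all windows. RefSeq entries were matched for 7 of the 8 members, all but *Rarres2*.

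The libraries held 11962228 to 21581595 reads (median 15573273), and no pair of libraries agreed within sampling noise. All levels are given in normalized CPM, read counts that edgeR scaled to the size of each library. The adipocyte list, 11 markers of mature adipocytes such as *Plin1*, *Cidec* and *Fabp4* that does not hold the members, was above 0 for every gene in every library, with a summed level of 4568 to 23944 normalized CPM in WT and 5575 to 19310 in CCL19-KI mice. Libraries differed widely in hepatocyte markers: the summed level of 11 such genes ranged from 12.4 to 39833 normalized CPM, with a median of 871 for the ND, 15281 for the 40% HFD and 13559 for the 60% HFD. *Alb*, the serum albumin gene of hepatocytes, ranged from 5.55 to 26901 normalized CPM. The part of this signal in the results was not tested beyond a fit with the hepatocyte score as a covariate, and in these bulk samples, fewer cells of a type and less RNA per cell cannot be told apart.

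The genotype labels were checked with *Ccl19*, the chemokine of the knock-in, and with *Gm2564*, a gene of the duplicated chemokine cluster on chromosome 4 that can share reads with *Ccl19*, so that the split of reads between both is uncertain. A pair of libraries went against their labels. The library labelled WT, ND, no ligature, replicate 2 held 19.2 normalized CPM of *Ccl19* and 41.9 of *Gm2564*, whereas the other 17 WT libraries held 0.507 to 4.51 and 0 to 0.160. The library labelled CCL19-KI, 60% HFD, no ligature, replicate 3 held 0.687 of *Ccl19* and 0 of *Gm2564*, whereas the other 17 CCL19-KI libraries held 5.57 to 34.6 and 11.6 to 107.9. Both libraries were kept under their labels, and the results that rest on them are also given without both.

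Per length of exon, *Cfd* was the most abundant of the 8 genes, with a median over the 36 libraries of 1438 normalized CPM per kb, followed by *Adipoq* with 834. *Rbp4* (466), *Lep* (443) and *Retn* (303) formed the middle of the range. *Rarres2* was at 149, *Nampt* at 22.5 and *Apln* at 0.658 normalized CPM per kb. The spread within a gene was wide: the level of *Cfd* ranged from 275 to 11445 and that of *Lep* from 38.2 to 1257 normalized CPM per kb, whereas that of *Nampt* ranged from 12.8 to 44.9.

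**Figure D1:**
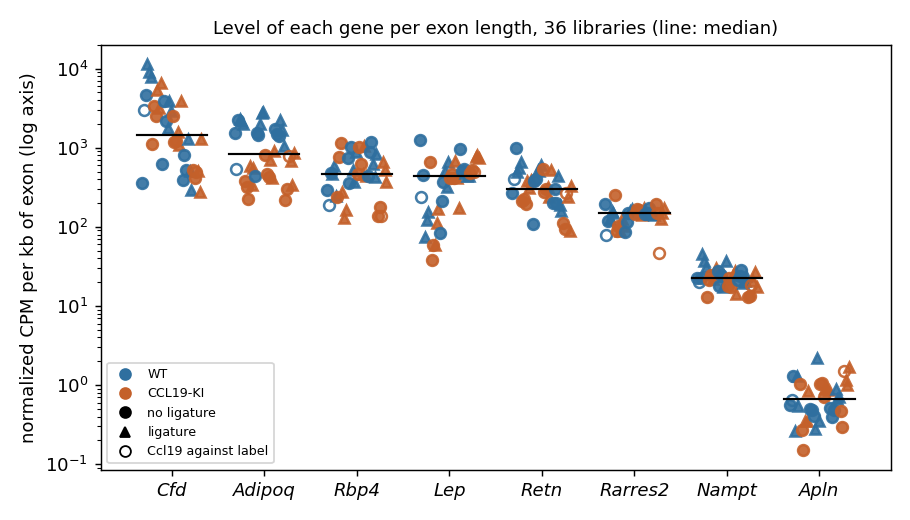
Level of each adipokine gene in normalized CPM per kb of exon (log axis), with 1 point per library (36 per gene) and a line at the median. Blue points are WT and orange points CCL19-KI mice, circles mice without and triangles mice with ligature, and open symbols the pair of libraries that go against their labels. Medians run from 1438 for *Cfd* to 0.658 for *Apln*.

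*Adipoq*, which encodes adiponectin, the insulin-sensitizing hormone of adipocytes, was compared first because the knock-in lies in its locus. *Adipoq* was lower in CCL19-KI than in WT mice, at a mean of 714 ± 310 against 2413 ± 914 normalized CPM (SD, n = 18 each). In ND-fed mice without ligatures, the WT libraries held 2103, 751 and 3115 normalized CPM and the CCL19-KI libraries 526, 436 and 309. The value of 751 belongs to the library labelled WT whose *Ccl19* went against its label, and even so all 3 WT values were above all 3 CCL19-KI values. With ligatures under an ND, *Adipoq* was at 3230, 3021 and 2782 in WT and at 805, 470 and 759 in CCL19-KI mice, so that the groups did not overlap.

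Under a 40% HFD without ligatures, the WT libraries held 615, 2120 and 2013 normalized CPM of *Adipoq* and the CCL19-KI libraries 1126, 647 and 584. These groups overlapped through the first WT library, which also had the lowest mean of the adipocyte list among all 36 libraries (7.14 on the log2 scale). With ligatures, the values were 2786, 3823 and 3937 in WT and 973, 572 and 1246 in CCL19-KI mice, with no overlap. Under a 60% HFD without ligatures, they were 2354, 2076 and 1931 in WT and 300.1, 417 and 1095 in CCL19-KI mice. The value of 1095, from the library labelled CCL19-KI whose *Ccl19* went against its label, was the highest of its group but below every WT value. With ligatures, WT mice were at 3059, 2291 and 1435 and CCL19-KI mice at 929, 470 and 1178, again with no overlap.

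**Figure D2:**
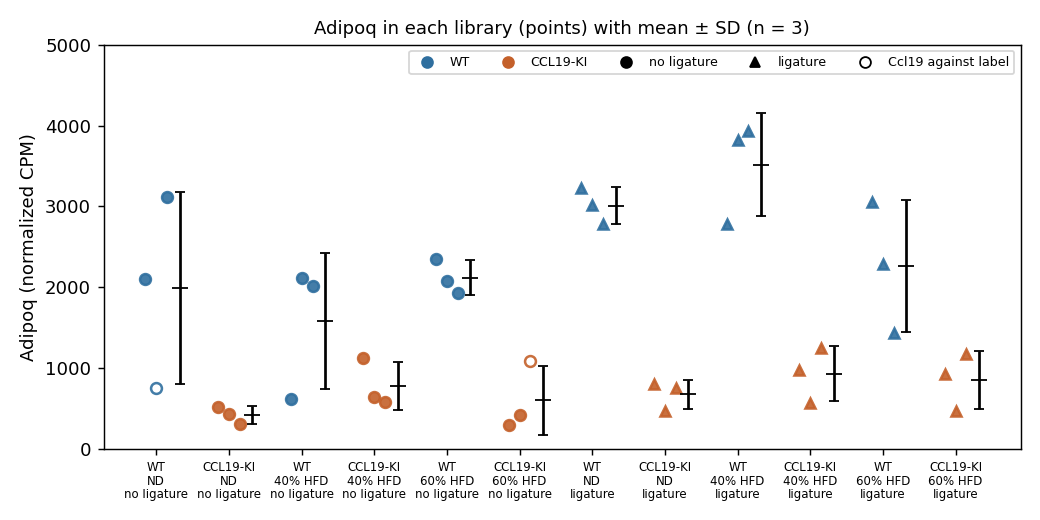
*Adipoq* in normalized CPM in each of the 36 libraries, arranged by ligature, diet and genotype, with the mean ± SD of each group (n = 3) as a black bar. Open circles mark the pair of libraries whose *Ccl19* goes against their labels, at 751 and 1095. All CCL19-KI values lie at or below 1246, and the groups overlap only under a 40% HFD without ligatures.

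Averaged over the 6 combinations of diet and ligature, *Adipoq* was 3.37-fold lower in CCL19-KI mice (log2 fold change −1.75, SE 0.21, limma with Benjamini-Hochberg adjustment over 17852 genes, adjusted p = 1.18e-05). Fold changes are on the scale of log2(normalized CPM + 1). Without the 2 libraries that go against their labels, the log2 fold change was −1.94 (SE 0.17, adjusted p = 1.18e-07). *Adipoq* was the 1 member of 8 that passed the adjusted p threshold of 0.05 for genotype, where 0.459% of all genes passed, and 7.21% without the 2 libraries. The mean was lower in CCL19-KI mice in 6 of 6 combinations, and the groups did not overlap in 5 of them. Among all genes, the share whose CCL19-KI values were all below the WT values was 14.7% for the ND, 6.74% for the 40% HFD and 16.3% for the 60% HFD without ligatures, and 9.53%, 5.63% and 4.7% with ligatures.

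Within the single combinations, the log2 difference of *Adipoq* between CCL19-KI and WT mice passed the test in ND-fed mice without ligatures (−2.04, SE 0.50, limma adjusted p = 0.0108), in ND-fed mice with ligatures (−2.19, adjusted p = 0.0266) and in 60% HFD-fed mice without ligatures (−2.03, adjusted p = 0.0118). In these 3 comparisons, 16.6%, 1.03% and 16.8% of all genes passed. It was −0.87 under a 40% HFD without ligatures (adjusted p = 0.747), −1.97 under a 40% HFD with ligatures (adjusted p = 0.775) and −1.43 under a 60% HFD with ligatures (adjusted p = 1.0), comparisons in which 0.0056%, 0.0112% and 0.0112% of all genes passed. In these last 3 combinations, limma and edgeR called 0 of the 8 members, with 0, 1 and 1 at an unadjusted p below 0.05 by limma. The unadjusted p in the last 2 was 0.000548 and 0.00845. Leaving out 1 library moved the difference under a 40% HFD without ligatures between −1.46 (without WT replicate 1) and −0.56 (without WT replicate 2). Scaled to the adipocyte list, it was −1.40 under a 40% HFD without ligatures (called only without the 2 libraries, adjusted p = 0.00886), and the differences with ligatures were called under a 40% HFD (−1.86, adjusted p = 0.00826) and a 60% HFD (−1.67, adjusted p = 0.0488). Sample quality weights also called the differences with ligatures under both HFDs (−1.73 and −1.51, adjusted p = 0.0171 and 0.0421). The share of all genes called with the adipocyte scaling or these weights is not given here. The log2 difference without the 2 libraries was −2.62 under an ND and −2.57 under a 60% HFD without ligatures (adjusted p = 0.00125 and 0.00131).

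These single-combination calls rested on few libraries. The call under an ND without ligatures was lost without WT replicate 3 (−1.60, limma adjusted p = 0.0641), CCL19-KI replicate 2 (−2.07, adjusted p = 0.0609) or CCL19-KI replicate 3 (−1.83, adjusted p = 0.0718). That under an ND with ligatures was lost without WT replicate 1 (−2.13, adjusted p = 0.134), WT replicate 2 (−2.18, adjusted p = 0.116) or CCL19-KI replicate 2 (−1.94, adjusted p = 0.179), and that under a 60% HFD without ligatures was lost without CCL19-KI replicate 1 (−1.64, adjusted p = 0.0526). The call under an ND with ligatures was also lost by quantile normalization (−1.50, adjusted p = 0.21) and with the stricter filter (adjusted p = 0.0784), and that under an ND without ligatures with the hepatocyte score as a covariate (−1.20, adjusted p = 0.30). Fitted apart from the ligatured mice, the 60% HFD difference without ligatures had an adjusted p of 0.060. Scaled to the adipocyte list, the differences without ligatures were smaller but called, at −0.79 under an ND (adjusted p = 0.0293) and −1.14 under a 60% HFD (adjusted p = 0.0103).

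Whether the genotype effect on *Adipoq* depended on diet or ligature was tested by the difference of effects. The effect under a 40% HFD minus that under an ND was 0.69 on the log2 scale (SE 0.50, limma adjusted p = 0.655). It ranged from 0.40 (without WT 40% HFD replicate 1 without ligature) to 0.98 (without WT ND replicate 2 without ligature) when 1 library was left out, and with sample quality weights it was 1.25 and called (adjusted p = 0.0212). Over all genes, the count called for this difference ranged from 0 to 13339 between settings. In the main test, the effect under a 60% HFD minus that under an ND was 0.38 (SE 0.50, adjusted p = 0.687), and 0.86 with quality weights (adjusted p = 0.0600). The effect with ligature minus that without was −0.21 (SE 0.41, adjusted p = 0.888). By limma, 0 of the 8 members passed in any of these 3 tests of difference, with 1, 1 and 0 at an unadjusted p below 0.05, and edgeR also called 0, with 0, 1 and 0. In the 3 tests, 0%, 0.476% and 0.0056% of all genes passed. The sign of these *Adipoq* differences turned under other settings. The diet differences turned in the adipocyte scaling (−0.48 and −0.25), the second of them also with the hepatocyte score as a covariate (−0.17), and the ligature difference with quality weights (0.13) and without the 2 libraries (0.16).

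The adipocyte list was also lower in CCL19-KI mice, with 11 of 11 genes at a negative log2 difference (median −0.43, range −0.50 to −0.13), while the median of all genes was −0.02. None of the 11 passed by limma or by edgeR, with 7 at an unadjusted p below 0.05 in each. Without the 2 libraries, 1 of the 11 passed. The log2 level of *Adipoq* was therefore set against the mean log2 level of the list in the same library. *Adipoq* exceeded the list mean by 2.03 to 2.95 in the 17 WT libraries other than the one against its label, and by 0.43 to 1.21 in the 17 such CCL19-KI libraries, so that the genotypes did not overlap. The library labelled WT, ND, no ligature, replicate 2 exceeded it by 0.77, within the CCL19-KI range. The library labelled CCL19-KI, 60% HFD, no ligature, replicate 3 exceeded it by 1.78, between both ranges. When all values were scaled to the adipocyte list, the log2 fold change of *Adipoq* was −1.39 and called by limma, beside a median of all genes of 0.34 in that scaling.

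**Figure D3:**
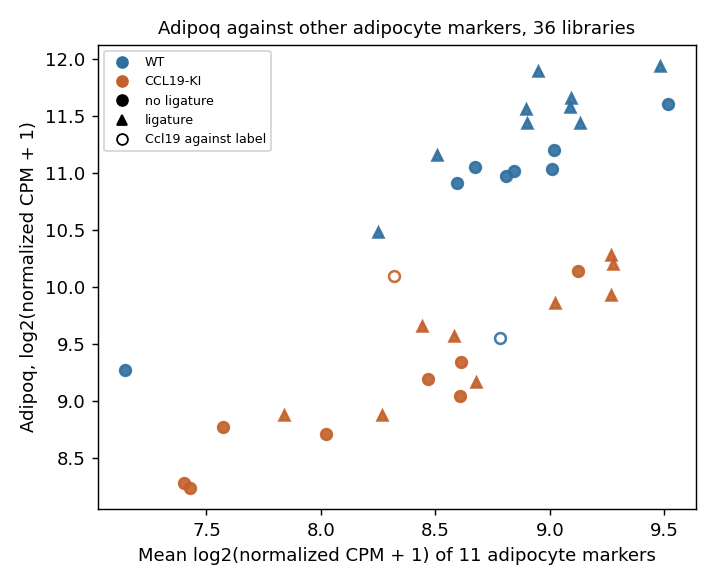
*Adipoq* (y axis, log2 of normalized CPM + 1) against the mean of 11 other adipocyte markers (x axis, same scale) in 36 libraries. WT libraries (blue) lie 2.03 to 2.95 and CCL19-KI libraries (orange) 0.43 to 1.21 above the list mean, apart from the open symbols of the pair against their labels, at 0.77 and 1.78.

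To see whether neighbours of the locus differed as well, the 12 tested protein-coding genes within 300 kb of *Adipoq* were examined. By limma, 0 of 12 passed for genotype, and edgeR called 0 as well, with 2 at an unadjusted p below 0.05 in each. Their log2 differences ranged from −0.49 for *St6gal1*, a sialyltransferase gene just downstream of *Adipoq* (adjusted p = 0.235), to 0.15 for *Rtp1*. Just upstream, *Rfc4*, a replication factor subunit gene, was at −0.11 (adjusted p = 0.586) and *Eif4a2*, a translation initiation helicase gene, at −0.21 (adjusted p = 0.227). *Ahsg*, *Fetub*, *Kng1*, *Kng2*, *Hrg* and *Masp1*, which encode proteins secreted by the liver, lay between −0.48 and −0.13. *Dnajb11* and *Tbccd1* were at −0.06 and −0.14. *Ccl19* itself was 5.76-fold higher in CCL19-KI mice (log2 fold change 2.53, SE 0.25, adjusted p = 8.77e-07), and 2.80 on the log2 scale without the 2 libraries.

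*Adipoq* was not called between diets, with a mean of 1526 ± 1208 with an ND, 1704 ± 1237 with a 40% HFD and 1461 ± 882 with a 60% HFD (normalized CPM, SD, n = 12 each). The means of the 6 WT groups (1583 to 3516) were all above those of the 6 CCL19-KI groups (424 to 930.3), but each group overlapped the next in that order. With ligatures, the mean was higher than without in 6 of 6 combinations of genotype and diet, by 1.07 to 2.22-fold, and the averaged log2 difference of 0.62 (SE 0.21) did not pass (limma adjusted p = 0.149, unadjusted p = 0.00544). The adipocyte list moved with it, at a positive log2 difference in 11 of 11 genes (median 0.41), 0 of which passed by limma or edgeR, with 7 at an unadjusted p below 0.05 in each. Scaled to the list, the ligature difference of *Adipoq* was 0.23 and not called (adjusted p = 0.109), while with quality weights it was 0.56 and called (adjusted p = 0.0203). Between settings, the count of all genes called for ligature ranged from 44 to 3954, beside 58 in the main test.

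*Lep* encodes leptin, the satiety hormone, and *Cfd* encodes adipsin, the serine protease of the alternative complement pathway that cleaves factor B. Between the ND and the 60% HFD, these genes moved in opposite directions on average. The 40% HFD difference from the ND was called for neither in the main test. In WT mice without ligatures it was −1.46 for *Lep* and 0.02 for *Cfd* on the log2 scale. In WT mice without ligatures, *Lep* was at 4217, 809 and 1513 normalized CPM with an ND, 278, 714 and 1235 with a 40% HFD, and 3204, 1689 and 1826 with a 60% HFD. The first ND library had the highest *Lep* of all 36 libraries, so that the diets overlapped here. In WT mice with ligatures, *Lep* was at 247, 411 and 523 with an ND, 1690, 1083 and 2207 with a 40% HFD, and 1590, 1477 and 1494 with a 60% HFD. Here both HFDs lay above the ND with no overlap. For diet comparisons, here and below, the share of all genes without overlap was not counted.

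In CCL19-KI mice without ligatures, *Lep* was at 2199, 128 and 199.5 with an ND, 1397, 1565 and 1384 with a 40% HFD, and 1618, 1779 and 1646 with a 60% HFD. Again the first ND library was far above the other two, and above both HFD groups. In CCL19-KI mice with ligatures, it was at 195, 379 and 569 with an ND, 2292, 1376 and 573 with a 40% HFD, and 2547, 2728 and 2485 with a 60% HFD. These diets did not overlap between the ND and either HFD.

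Over all mice, *Lep* was 3.57-fold higher under a 60% HFD than under an ND (log2 fold change 1.84, SE 0.36, limma adjusted p = 0.00143). The mean was higher in 4 of 4 combinations of genotype and ligature, by 1.03 to 6.79-fold. The lowest ratio was in WT mice without ligatures, and these diets overlapped in both genotypes without ligatures. Under a 40% HFD, the log2 difference from the ND was 1.08 (SE 0.36, adjusted p = 0.0531), 0.95 without the 2 libraries (adjusted p = 0.104). It passed with the hepatocyte score as a covariate (1.67, adjusted p = 0.0358), with quality weights (1.49, adjusted p = 0.000124) and with the stricter filter (adjusted p = 0.0489). It also passed without WT ND replicate 1 or CCL19-KI ND replicate 1 of the mice without ligatures, the pair of ND libraries with high *Lep* (adjusted p = 0.0249 and 0.00292), and without WT replicate 1 without ligature, WT replicate 2 with ligature or CCL19-KI replicate 3 with ligature of the 40% HFD (1.15 to 1.23). Between both HFDs it did not pass (adjusted p = 0.36). Depending on the setting, 78 to 4797 of all genes were called for the 40% HFD against the ND.

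The mean level of *Cfd* fell with the fat content of the diet. Under an ND, its level in WT mice was 333, 2804 and 4220 normalized CPM without and 10552, 8444 and 7250 with ligatures, and in CCL19-KI mice 1040, 3110 and 2288 without and 4954, 2903 and 6043 with ligatures. The lowest value, 333, was in the WT library with the highest *Lep*, and the value of 1040 in the CCL19-KI library with *Lep* at 2199. Under a 40% HFD, *Cfd* was at 568, 3636 and 1984 in WT mice without and 1648, 3593 and 2714 with ligatures, and at 2305, 1076 and 1106 in CCL19-KI mice without and 1470, 999 and 3610 with ligatures. Under a 60% HFD, it was at 361, 751 and 485 in WT mice without and 1182, 473 and 272 with ligatures, and at 487, 386 and 458 in CCL19-KI mice without and 475, 254 and 1176 with ligatures. Only in WT mice without ligatures did the 60% HFD overlap the ND, through the library at 333.

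*Cfd* was 6.58-fold lower under a 60% HFD than under an ND (log2 fold change −2.72, SE 0.37, limma adjusted p = 7.45e-05), and the mean was lower in 4 of 4 combinations, at 0.0734 to 0.217 of the ND mean. It was 3.54-fold lower under a 60% than under a 40% HFD (log2 fold change −1.82, SE 0.37, adjusted p = 0.0196), the 1 member of 8 called in this comparison, where 0.745% of all genes were called. With those 2 libraries left out, 2 of 8 were called, *Cfd* and *Retn*, beside 1.55% of all genes. The log2 difference between the 40% HFD and the ND was −0.89 (SE 0.37, adjusted p = 0.125), and −1.18 without WT ND replicate 1 without ligature, the library at 333 (adjusted p = 0.0217). It passed with quality weights as well (−1.07, adjusted p = 0.0151). The count of all genes called for this comparison ranged from 78 to 4797 between settings. The 60% HFD effects on *Cfd* without the 2 libraries were −2.62 against the ND and −1.83 against the 40% HFD, both called.

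*Retn* encodes resistin, a small cysteine-rich hormone that in mice comes from adipocytes. Its median was 604 normalized CPM with an ND (311 to 1550, n = 12), 622 with a 40% HFD (173 to 956) and 318 with a 60% HFD (139 to 703). The 60% HFD libraries overlapped both other diets. *Retn* was 1.91-fold lower under a 60% HFD than under an ND (log2 fold change −0.94, SE 0.26, limma adjusted p = 0.0138), in 4 of 4 combinations. The call was lost with the hepatocyte score as a covariate (−0.64, adjusted p = 0.161). Against the 40% HFD, the log2 difference was −0.88 (SE 0.26, adjusted p = 0.0941), and −0.99 without the 2 libraries, where it passed (adjusted p = 0.046). It passed in addition without WT 40% HFD replicate 1 without ligature (−1.03, adjusted p = 0.0365).

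Thus 3 of 8 members were called between the 60% HFD and the ND, where 18.6% of all genes were called, and 1 of 8 between the 40% HFD and the ND, where 9.21% were. These counts were 3 and 0 without the 2 libraries, against 14.7% and 7.75% of all genes. Over the 36 libraries, *Retn* and *Cfd* had a Pearson r of 0.77 and *Lep* and *Cfd* of −0.65 on the log2 scale. These r describe libraries that share diet groups and depth and are given without a test. On the log2 scale, *Cfd* minus *Lep* ranged from −3.66 to 5.41 under an ND (median 3.46), from −0.64 to 2.65 under a 40% HFD (median 0.49) and from −3.42 to −0.43 under a 60% HFD (median −1.88). The lowest ND value was that of the WT library with the highest *Lep*. The level of the adipocyte list overlapped between diets, with a median of 8.70, 8.88 and 8.55 on the log2 scale.

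**Figure D4:**
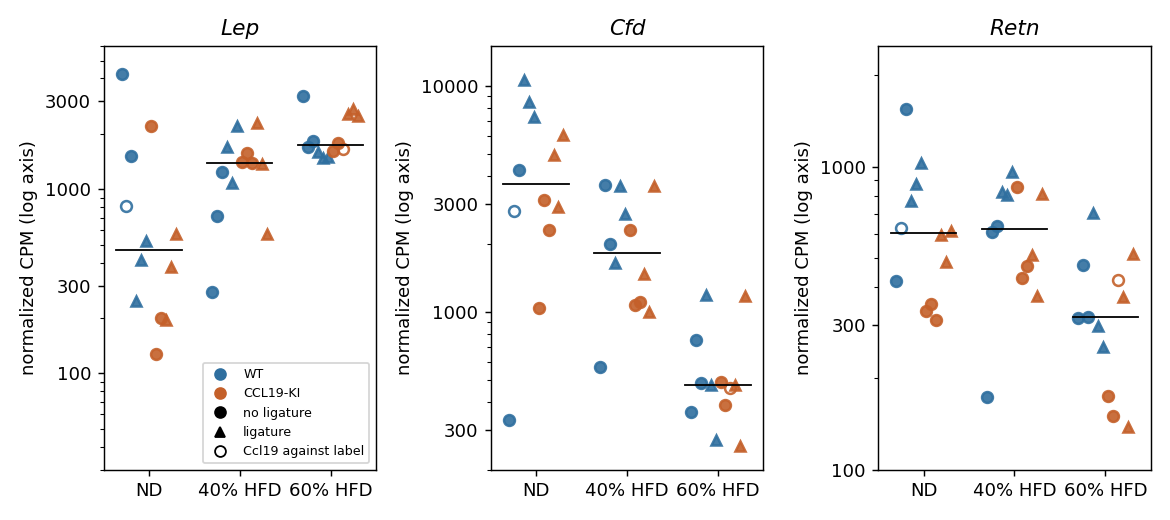
*Lep*, *Cfd* and *Retn* in normalized CPM (log axis) by diet, with 1 point per library (12 per diet) and a line at the median. *Lep* has its lowest median under an ND and *Cfd* its highest, while 1 WT library under an ND without ligature lies at 4217 for *Lep* and 333 for *Cfd*.

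For genotype, *Lep*, *Cfd* and *Retn* did not pass in the average of 6 combinations. *Lep* had a mean of 1456 ± 1014 in WT and 1392 ± 871 normalized CPM in CCL19-KI mice, and *Cfd* of 2848 ± 3049 and 1897 ± 1661 (SD, n = 18 each). *Retn* had a mean of 646 ± 342 and 440 ± 198, with a log2 difference of −0.51 (SE 0.21, limma adjusted p = 0.21), which was −0.79 and called with quality weights (adjusted p = 0.00383). Between settings, the count of all genes called for genotype ranged from 41 to 6402, beside 82 in the main test. Among ND-fed mice without ligatures, *Lep* was lower in CCL19-KI mice (log2 fold change −2.17, SE 0.71, adjusted p = 0.0377), although the groups overlapped and 16.6% of all genes passed there. This call was lost by edgeR (−1.30, adjusted p = 0.199), in the adipocyte scaling (−0.93, adjusted p = 0.166), with the hepatocyte score as a covariate (−0.96, adjusted p = 0.58) and when fitted apart from the ligatured mice (adjusted p = 0.122). It was also lost without WT replicate 1 (−1.53), WT replicate 3 (−2.26), CCL19-KI replicate 2 (−1.38) or CCL19-KI replicate 3 (−1.70), while without CCL19-KI replicate 1, the library at 2199, it was −3.43 and called (adjusted p = 0.000288).

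*Rbp4* encodes the carrier of retinol in blood, which hepatocytes and adipocytes secrete. Over 36 libraries, the Pearson r of *Rbp4* with the mean log2 level of the 11 hepatocyte genes was 0.82, a description of libraries that share the tissue piece and depth. The gene was 1.81-fold higher under a 40% HFD than with an ND (log2 fold change 0.86, SE 0.26, limma adjusted p = 0.0394), with a median of 381 normalized CPM under an ND (171 to 1521), 773 with a 40% HFD (481 to 1397) and 647 with a 60% HFD (183 to 1569). The hepatocyte list moved with it, with 10 of its 11 genes called higher under each HFD and a median log2 difference of 3.95 and 3.08. Of all genes, 5.36% were called higher under the 40% HFD and 10.2% under the 60% HFD. With the hepatocyte score as a covariate, the log2 difference of *Rbp4* under a 40% HFD was −0.039 (adjusted p = 0.956). The call was also lost in the adipocyte scaling (0.61, adjusted p = 0.284), with quality weights (0.48, adjusted p = 0.0851) and with no filter (adjusted p = 0.0502). Without the 2 libraries it was 0.78 and not called (adjusted p = 0.0762), and leaving out any 1 of 13 libraries also ended the call, with a log2 difference between 0.69 and 0.88.

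The lowest group of *Rbp4* was that of CCL19-KI mice under a 60% HFD without ligatures, at 183, 238 and 183 normalized CPM, against 596, 1180 and 1569 in the matching WT mice, with no overlap. The log2 difference was −2.37 (SE 0.52, limma adjusted p = 0.00723) in a comparison where 16.8% of all genes passed, and −2.07 without WT replicate 3 (adjusted p = 0.0501). It was −2.31 without the 2 libraries (adjusted p = 0.012) and −0.97 with the hepatocyte score as a covariate (adjusted p = 0.19). In the adipocyte scaling it was −1.47 (adjusted p = 0.0783), and −1.21 in that scaling without the 2 libraries (adjusted p = 0.17), not called in either. The mean log2 level of the hepatocyte list was 5.17, 5.97 and 0.86 in these CCL19-KI libraries and 8.69, 10.33 and 10.84 in the WT libraries. In the average over the 6 combinations, the genotype difference of −0.44 (SE 0.21) did not pass (adjusted p = 0.29), but did with quality weights (−0.50, adjusted p = 0.0371). Depending on the setting, 41 to 6402 of all genes were called for genotype. The third library of the CCL19-KI group, which went against its label, also held 9541 normalized CPM of *Crisp1*, a gene of the epididymis. The mean log2 level of 6 epididymis markers, *Crisp1* among them, was 3.08 in that library. It was 8.21 in replicate 2 of the same group and 8.55 in the library labelled WT, ND, no ligature, replicate 2.

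**Figure D5:**
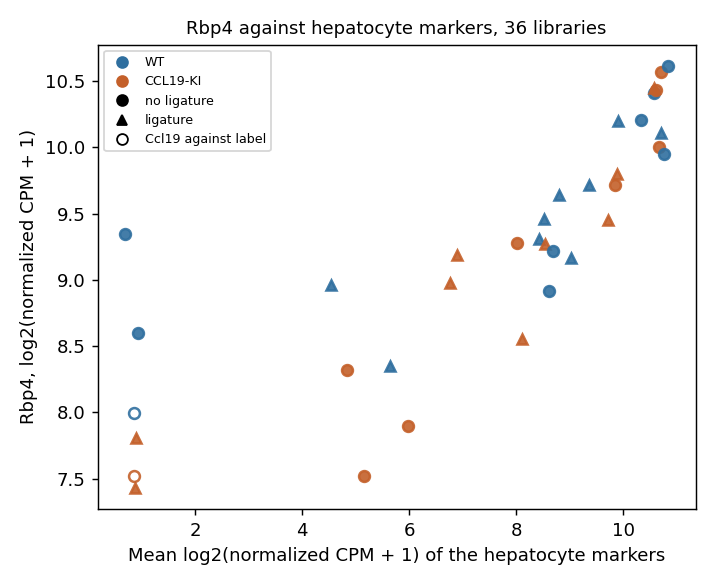
*Rbp4* (y axis, log2 of normalized CPM + 1) against the mean of 11 hepatocyte markers (x axis, same scale) in 36 libraries, coloured by genotype, with open symbols for the pair against their labels. The Pearson r is 0.82, and libraries of both genotypes lie along the whole range.

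*Nampt*, the rate-limiting enzyme of NAD salvage that is also secreted as visfatin, ranged from 64.8 to 227 normalized CPM over the 36 libraries. It was at 130.4 ± 37.4 normalized CPM in WT and 104 ± 26.8 in CCL19-KI mice (SD, n = 18 each), a log2 difference of −0.32 (SE 0.11) that did not pass (limma adjusted p = 0.134), and that turned to 0.039 when values were scaled to the adipocyte list. Its log2 difference with ligature was 0.30 (SE 0.11, adjusted p = 0.179), which turned to −0.089 in that scaling, and that of the 60% HFD from the ND −0.31 (SE 0.13, adjusted p = 0.0921), −0.38 and called without CCL19-KI ND replicate 1 without ligature (adjusted p = 0.0327). The 60% HFD difference was also called with quantile normalization (−0.45, adjusted p = 0.00623), quality weights (−0.45, adjusted p = 0.00105) and the hepatocyte score as a covariate (−0.47, adjusted p = 0.0428), and the ligature difference with quality weights (0.29, adjusted p = 0.0344). Between settings, counts of all genes called ranged from 453 to 7846 for the 60% HFD and from 44 to 3954 for ligature. Under an ND with ligatures, WT mice were at 227, 189 and 155 normalized CPM and CCL19-KI mice at 110, 132 and 150.4. These groups did not overlap, and among all genes the CCL19-KI values were all lower for 9.53% there. Without the 2 libraries that go against their labels, *Nampt* was called between the genotypes under a 60% HFD without ligatures (log2 fold change −0.86, SE 0.29, adjusted p = 0.0432), with 66.0 and 68.1 normalized CPM in the remaining CCL19-KI mice against 106, 121 and 144 in WT mice.

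*Rarres2*, the gene of the chemoattractant chemerin, was at 378 ± 77.3 normalized CPM in WT and 377 ± 124 in CCL19-KI mice, and *Apln*, the gene of the vasoactive peptide apelin, at 2.19 ± 1.51 and 2.55 ± 1.35. Neither passed in any of the averaged comparisons. The lowest *Rarres2*, 123, was in the library labelled CCL19-KI, 60% HFD, no ligature, replicate 3, and the second lowest, 208, in the library labelled WT, ND, no ligature, replicate 2, the pair against their labels. For *Apln*, the depth was low: 1 read was worth 0.0472 to 0.0834 normalized CPM.

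With ligature, 0 of the 8 members passed in the average of 6 combinations, by limma or by edgeR, with 3 at an unadjusted p below 0.05 in each. Of all genes, 0.325% passed. Besides *Adipoq* and *Nampt*, *Cfd* was the third of these, with a log2 difference of 0.82 (SE 0.31, limma adjusted p = 0.199), and its mean was higher in 6 of 6 combinations of genotype and diet, by 1.21 to 3.57-fold. In ND-fed WT mice, the *Cfd* values of 7250 to 10552 with ligatures were all above those without, and in the other 5 combinations the groups overlapped. The share of all genes without overlap was not counted for ligature.

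Receptors and partners of the adipokines were examined as a list of 14 genes. For genotype, 0 passed by limma or edgeR, with 4 at an unadjusted p below 0.05 in each. Without the 2 libraries, *Cdh13*, the gene of T-cadherin that binds adiponectin, was called higher in CCL19-KI mice (log2 fold change 0.56, SE 0.14, limma adjusted p = 0.0243), and over all libraries it was at 0.55 (adjusted p = 0.102). Its receptors *Adipor1* and *Adipor2* were at −0.05 and −0.27 (adjusted p = 0.771 and 0.236). Under a 60% HFD, 5 of the 14 rose and 2 fell against the ND (list median −0.04, median of all genes 0.01), where 10.2% of all genes rose and 8.4% fell. *Aplnr*, the apelin receptor gene, rose by 0.94 on the log2 scale (limma adjusted p = 0.00425), from a mean of 1.17 to 3.38 normalized CPM, and by 1.59 with edgeR and 0.41 with a pseudocount of 5, called in both. *Stra6l*, a receptor gene for *Rbp4* that the liver uses, rose by 1.61 (adjusted p = 0.0357), a change that turned to −0.062 with the hepatocyte score as a covariate and that edgeR did not call (adjusted p = 0.0757). *Lepr*, the leptin receptor gene, fell by 0.79 (adjusted p = 0.0408), from 6.18 to 2.36 normalized CPM, and was not called without the 2 libraries (−0.61, adjusted p = 0.122), in the adipocyte scaling (adjusted p = 0.341), with a pseudocount of 0.1 (adjusted p = 0.0579) or with no filter (adjusted p = 0.0520).

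Under a 40% HFD, 2 of the 14 rose and 1 fell (list median 0.09, median of all genes −0.02), where 5.36% of all genes rose and 3.85% fell. *Cfb*, the gene of factor B that adipsin cleaves, rose by 0.66 on the log2 scale (limma adjusted p = 0.0219), from a mean of 366 to 566 normalized CPM, and this call was lost with the hepatocyte score as a covariate (0.25, adjusted p = 0.577), in the adipocyte scaling (0.41, adjusted p = 0.345) and with quantile normalization (0.44, adjusted p = 0.0648). *Stra6l* rose by 1.83 (adjusted p = 0.031), which was −0.31 with that covariate and not called without the 2 libraries (1.75, adjusted p = 0.0504), and *Stra6*, the other receptor gene for *Rbp4*, fell by 0.56 (adjusted p = 0.0366), at a low level of 1.33 against 0.434. With a pseudocount of 0.1 or in the adipocyte scaling, *Stra6* was not called (adjusted p = 0.0594 and 0.126), nor was *Stra6l* in that scaling (adjusted p = 0.151).

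Adiponectin is assembled into multimers in the endoplasmic reticulum, and 6 genes of that process were examined. For genotype, 0 of 6 passed by limma or edgeR, with 2 and 1 at an unadjusted p below 0.05, while their median log2 difference was −0.12. Under a 60% HFD, 4 of 6 rose against the ND (list median 0.46, median of all genes 0.01), where 10.2% of all genes rose, and *Adipoq* did not pass. Without the 2 libraries, 2 of 6 rose (list median 0.37). *Hspa5*, the gene of the chaperone BiP, rose by 0.72 (limma adjusted p = 0.00189), from a mean of 346 to 556 normalized CPM. *Plod1* and *Plod3*, genes of lysyl hydroxylases, rose by 0.47 and 0.46 (adjusted p = 0.00796 and 0.0346), and *Plod3* was not called without the 2 libraries (0.37, adjusted p = 0.097), by edgeR (adjusted p = 0.0704) or with quantile normalization (0.35, adjusted p = 0.114). In the adipocyte scaling, *Hspa5*, *Plod1* and *Plod3* were not called (adjusted p = 0.0722, 0.145 and 0.0781). Under a 40% HFD, 1 of 6 rose (list median 0.32, median of all genes −0.02), where 5.36% of all genes rose. This was *Hspa5*, by 0.56 (adjusted p = 0.0184), a call lost with quantile normalization (0.37, adjusted p = 0.0990), in the adipocyte scaling (0.32, adjusted p = 0.365) and with the hepatocyte score as a covariate (0.55, adjusted p = 0.119).

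Of 25 other factors secreted by adipose tissue, 23 were tested. None passed for genotype by limma or edgeR, with 0 at an unadjusted p below 0.05 in each. Under a 60% HFD, 7 rose and 2 fell against the ND (list median 0.31, median of all genes 0.01), where 10.2% of all genes rose and 8.4% fell. Of the 23, 4 rose and 0 fell under a 40% HFD (list median 0.11, median of all genes −0.02), where 5.36% of all genes rose and 3.85% fell. *Sfrp5*, the gene of a secreted Wnt inhibitor, rose by 2.78 under a 60% HFD (limma adjusted p = 2.35e-05) and by 2.32 under a 40% HFD (adjusted p = 0.000786), from a mean of 64.1 normalized CPM under an ND to 234 and 194. *Ccn5*, a matricellular gene, rose by 1.93 under a 60% HFD (adjusted p = 0.00798). *Serpina12*, the gene of vaspin, rose by 1.33 under a 60% HFD and 1.71 under a 40% HFD (adjusted p = 0.0123 and 0.00664), from a low mean of 0.909 to 4.33 and 6.05, and neither was called with the hepatocyte score as a covariate (adjusted p = 0.266 and 0.278) or in the adipocyte scaling (adjusted p = 0.134 and 0.0978). By edgeR, which adds no pseudocount of 1, the *Serpina12* differences were 2.72 and 3.69, both called. *Angptl4*, a gene for an inhibitor of lipoprotein lipase, rose by 0.59 under a 40% HFD (adjusted p = 0.0103), a call lost with quantile normalization (0.41, adjusted p = 0.0541) and in the adipocyte scaling (0.35, adjusted p = 0.197, and 0.31 without the 2 libraries, adjusted p = 0.338).

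The genes whose log2 levels followed each member most closely over the 36 libraries were named by Pearson r. For *Adipoq* they were *Ntng2* (0.87), *Ghr* (0.79) and *Eif4ebp1* (0.78), and for *Lep* *Cryab* (0.96), *Cdr2* (0.96) and *Cd59a* (0.95). *Retn* was closest to *Mogat1* (0.92), *Gm454* (0.92) and *Ffar4* (0.90), and *Cfd* to *Fam13a* (0.91), *2010016I18Rik* (0.90) and *Slc1a3* (0.89). *Rbp4* was closest to *Cat* (0.94), *Scp2* (0.94) and *Retsat* (0.93). The nearest genes of *Nampt* were *Riok2* (0.83), *Mtmr14* (0.79) and *Ddx28* (0.78), those of *Rarres2* *Htra1* (0.81), *9930111J21Rik1* (0.81) and *Fkbp7* (0.81), and those of *Apln* *C1qtnf9* (0.63), *Adamts4* (0.61) and *Usp31* (0.61). These r describe libraries that share groups, tissue makeup and depth.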

How the data were processed

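RNA of eWAT from 36 mice was sequenced after rRNA depletion with a directional kit, 1 library per mouse. According to the authors, reads were trimmed with Trimmomatic (0.38), aligned with Bowtie2 and quantified with RSEM (1.3.0), and the deposited signal values are CPM normalized with edgeR, in 1 table for all libraries. The paper names mm10 and the submitters' processing notes name GRCm39. Each deposited value was a whole number of reads times the worth of 1 read in its library (tolerance 0.01, 100% of values), and the reads recovered in this way served for an alternative edgeR test, which called 85 genes for genotype.

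The main test was limma (3.58.1, R 4.3.3, eBayes with an intensity trend) on log2(normalized CPM + 1), fitted to the means of the 12 groups over all 36 libraries. It was planned for CPM, and the deposited values proved to be scaled further. The filter required 1 normalized CPM or more in 3 or more libraries, which 17852 genes met. A gene was called at a Benjamini-Hochberg adjusted p below 0.05. Alternatives were pseudocounts of 0.1 and 5, other filters and scalings, a replicate block, robust eBayes, sample quality weights, edgeR (4.0.16), a hepatocyte covariate, separate fits by ligature and leaving out each library. Leaving out the 2 libraries against their labels, alone or with scaling to the adipocyte list, was added after seeing the data. The procedure was tested on simulated data.

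The members and lists were chosen with earlier results of these data known. Genes named are the members, *Ccl19*, *Gm2564*, neighbours of *Adipoq*, up to 3 called genes per list and averaged diet comparison by size, and the 3 genes most like each member; *Alb*, *Crisp1*, *Adipor1*, *Adipor2* and *Cdh13* were added after their values were seen. The series' design text mentions a ligature for every mouse, and the paper's account of the RNA sequencing likewise names only ligatured mice. Groups follow the sample labels instead. The paper states that WT and CCL19-KI mice were cohabitated. Which mice shared cages or litters is not given in the sources used here, so that p-values measure the spread between these only. Figures were drawn with matplotlib (3.10.9).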

Additional observations from a re-analysis of the deposited data

Results flagged for a closer look

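Several contrasts pointed in opposite directions in different groups, in that every library of one group lay above, or below, every library of its control group. These opposite directions were not tested against each other, and groups of 3 allow no outlier test. The share of all genes without overlap was not counted for diet or ligature. Between genotypes, 4.7% to 16.3% of all genes separated in the lower direction alone, so some such separations arise among any genes. For *Lep*, mice with ligatures were higher than those without among CCL19-KI mice under a 60% HFD (log2 difference 0.62), and lower among WT mice under an ND (−2.20) and WT mice under a 60% HFD (−0.50). For *Rbp4*, the 60% HFD was higher than the ND in CCL19-KI mice with ligatures (1.48) and lower in those without (−1.99). For *Apln*, at levels of a few normalized CPM, the 40% HFD was higher than the ND in CCL19-KI mice with ligatures (0.60) and lower in WT mice without (−0.50), and the 60% HFD showed the same signs in these mice (0.97 and −0.51). The WT ND and CCL19-KI 60% HFD groups without ligatures each hold 1 of the libraries that go against their labels.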

How the results depend on the processing

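Groups of 3 mice limit every comparison within a single combination, and the pair of libraries against their labels, the hepatocyte signal and the share of adipocyte RNA move with some of the results. The lower *Adipoq* of CCL19-KI mice was called under all 14 other settings with all or without the 2 libraries (log2 −2.02 to −1.39, adjusted p 1.02e-11 to 6.86e-05) and without any 1 library (−1.85 to −1.68), and *Cfd* and *Lep* kept their 60% HFD calls against the ND under each alternative. Over all genes, counts of calls moved widely with the setting: from 82 to between 41 and 6402 for genotype, from 1645 to between 78 and 4797 for the 40% HFD, from 3315 to between 453 and 7846 for the 60% HFD, from 133 to between 81 and 355 between both HFDs, and from 58 to between 44 and 3954 for ligature. For the genotype effect under a 40% HFD minus that under an ND, the count moved from 0 to between 0 and 13339. For the effect under a 60% HFD minus that under an ND, it moved from 85 to between 2 and 6110. The causes of changes were not tested.

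Scaling to the adipocyte list put the median log2 difference of all genes at 0.34 for genotype, −0.26 for the 40% HFD and −0.41 for ligature. In this scaling, alone and then without the 2 libraries, the genotype difference of *Nampt* turned to 0.039 and 0.062, its ligature difference to −0.089 and −0.078, and the genotype effect on *Adipoq* under a 40% HFD minus that under an ND to −0.48 and −0.26, and under a 60% HFD to −0.25 and −0.21. With the hepatocyte covariate, the last turned to −0.17, *Rbp4* under a 40% HFD to −0.039, and *Stra6l* to −0.31 under a 40% HFD and −0.062 under a 60% HFD. The ligature difference of the *Adipoq* genotype effect turned to 0.13 with quality weights and 0.16 without the 2 libraries.

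Members called for genotype on average rose from 1 to 3 with quality weights and to 2 without the 2 libraries in the adipocyte scaling, while neighbours of *Adipoq* called rose from 0 to 2 and 1 in these settings. Under an ND without ligatures, the 2 members, *Adipoq* and *Lep*, became 4 in the adipocyte scaling with or without the 2 libraries, *Lep* not among them, 5 with quality weights, 1 with edgeR, 0 with the hepatocyte covariate and 1 in separate fits. The adipocyte scaling shifted all genes of this comparison alike and upward, *Adipoq* from −2.04 to −0.79 and *Lep* from −2.17 to −0.93. Calls added by it are thus not necessarily lower in CCL19-KI mice. Under an ND with ligatures, the 1 member became 0 with the stricter filter or quantile normalization and 5 with quality weights. Under a 60% HFD without ligatures, the 2 became 1 with the adipocyte scaling, the hepatocyte covariate or separate fits. Under a 40% HFD without ligatures, the 0 became 1 without the 2 libraries in the adipocyte scaling, and with ligatures under either HFD it became 1 in both adipocyte scalings and with quality weights. For the 40% HFD against the ND, the 1 became 0 without a filter, without the 2 libraries and in both adipocyte scalings, 2 with the stricter filter or the hepatocyte covariate, and 3 with quality weights. Between both HFDs, the 1 became 2 without the 2 libraries, scaled or not. Quality weights called 2 members for ligature, and 3 (*Adipoq* among them, at 1.25) and 2 for the genotype effect under a 40% and a 60% HFD minus that under an ND, where the adipocyte scaling without the 2 libraries called 1 for the former. The share of all genes called in each of these settings is not given here, so these counts show only how calls moved.

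Leaving out 1 library at a time gave 0 to 3 members under an ND and 1 to 3 under a 60% HFD without ligatures, 0 to 1 under an ND with ligatures, 0 to 3 for the 40% HFD against the ND, 3 to 4 for the 60% HFD against the ND, 1 to 2 between both HFDs, and 0 to 1 and 0 to 2 for the 2 diet differences of the genotype effect. Shares of all genes called in these fits are not given either, so these counts too show only how calls moved. The 60% HFD calls of *Lepr*, *Plod3* and *Stra6l* were lost without any 1 of 16, 11 and 12 libraries, and the 40% HFD calls of *Stra6*, *Stra6l* and *Cfb* without any 1 of 12, 10 and 1. With the replicate number as a block, *Adipoq* was at −1.75 for genotype, and the block changed no call of the members. The numbers did not pair the mice: 4 of 18 pairs of same-numbered libraries had a correlation of deviations over 0.1 (−0.64 to 0.34), and 5 of 18 CCL19-KI libraries were closest to their own number.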
